A study of Mus musculus with 6 samples.

Results

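The genes described here encode proteins that liver and yolk sac secrete into the circulation, read in the whole brain of mouse embryos. They are 10 genes of the 53801 in the count table, chosen by symbol: Afp, Alb, Trf, Apoa1, Apoa2, Apoa4, Kng1, Ahsg, Fgb and Serpina1a. Apoa4 and Kng1 were picked because they had been seen in 1 wild-type embryo, and the other 8 were then added as genes of the same organs. The levels of Apoa4 and Kng1 are therefore given as a description with no test. The brains came from C57BL/6 embryos at stage E16.5. There were 3 Bahd1-KO embryos (Bahd1-/-) and 3 Bahd1-WT embryos (Bahd1+/+) from matings of heterozygous animals, none of them treated. BAHD1 is a scaffold protein of complexes that repress chromatin, and the KO embryos inherited no intact copy of its gene. Polyadenylated RNA was sequenced with stranded libraries.

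In the late fetus the liver takes over from the visceral endoderm of the yolk sac as the main source of plasma proteins. Both organs make carriers, apolipoproteins, clotting factors and protease inhibitors. A few of these genes are also read in the brain itself, among them the transferrin gene Trf, which oligodendrocytes and choroid plexus use, whereas albumin and alpha-fetoprotein are classed as products of endoderm.

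The 10 genes were low in every brain, and in most cases they stood higher in 2 embryos than in the others, one of each genotype. Bahd1-WT replicate 3 held 3583 reads of them in all and Bahd1-KO replicate 3 held 783. The other embryos held 133 (Bahd1-KO replicate 1), 253 (Bahd1-KO replicate 2), 135 (Bahd1-WT replicate 1) and 132 (Bahd1-WT replicate 2). In CPM, read counts per 1e6 reads of a library after its size was scaled by a TMM factor (trimmed mean of M-values), the sums were 35.5 in Bahd1-WT replicate 3, 14.5 in Bahd1-KO replicate 3 and 1.41 to 3.00 in the other 4. The 2 high embryos did not hold the same mixture of transcripts. Afp and the apolipoproteins led in Bahd1-WT replicate 3, and Alb led in Bahd1-KO replicate 3. The values of the genotypes overlapped for all 10 genes, and none of the 7 that were tested was called by genotype.

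The libraries held 61.7 M to 91.8 M counted reads (1 M is 1e6). The targeted gene had 2, 10 and 6 reads across Bahd1-KO and 1971, 3102 and 3470 across Bahd1-WT, a log2 fold change of -8.40 (SE 0.606, adjusted p = 0.0462, edgeR). Bahd1-KO replicate 3 stood apart from the other embryos: a single gene, Gm42418, took 22.6% of its reads against 0.120% to 0.394% elsewhere, and its scaling factor was 0.683 against 1.04 to 1.11. In this library the summed markers of neurons were at 2528 CPM, while the other Bahd1-KO embryos reached 10260 CPM and the Bahd1-WT embryos spanned 8695 to 10753 CPM. The drop was in Tubb3, Stmn2, Map2, Dcx, Gap43 and Neurod6 and did not hold for every marker. Snap25 was highest there, at 910 CPM against 154 to 285 CPM in the others, and Syt1, Nefl and Rbfox3 lay within the range of the others. Markers of lung epithelium summed to 1873 CPM in Bahd1-KO replicate 3, against 23.8 and 27.3 CPM in Bahd1-KO replicates 1 and 2 and at most 22.8 CPM in the Bahd1-WT embryos. Outside Bahd1-KO replicate 3 most of this sum was Nkx2-1, with 23.5 CPM in Bahd1-KO replicate 1. Bahd1-KO replicate 2 also held lung transcripts, with 511 reads of Scgb1a1 and 225 of Sftpc. Bahd1-KO replicate 1 and the Bahd1-WT embryos had 4 to 15 and 0 to 11 reads of these genes. The label of whole brain was thus only partly borne out in Bahd1-KO replicate 3. The genotype differences of the members are given with and without Bahd1-KO replicate 3 and Bahd1-WT replicate 3. Ratios of these 2 embryos to the remaining 4 describe single libraries, were drawn up with the values in view and carry no test.

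**Figure D1:**
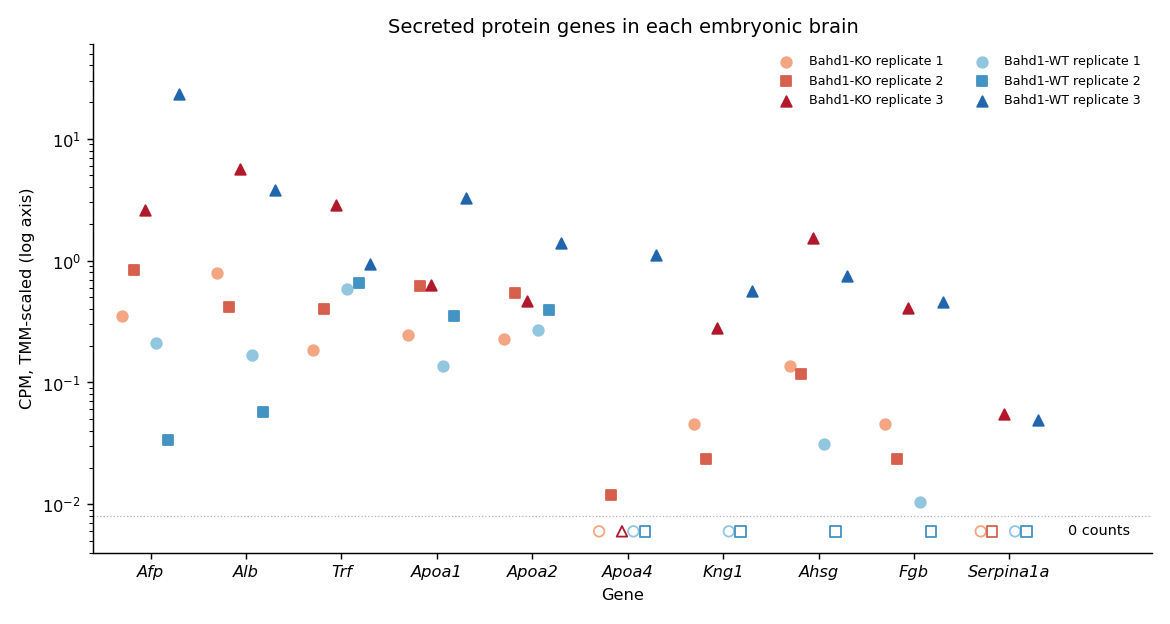
CPM of each of the 10 genes in the 6 embryos on a log axis, with genes along the horizontal axis, 1 point per embryo, red for Bahd1-KO and blue for Bahd1-WT. Open symbols under the dotted line are embryos with 0 counts. Bahd1-WT replicate 3 was the highest point for 6 genes and Bahd1-KO replicate 3 for 4, and the symbols of the 2 genotypes overlapped for every gene.

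Afp and Alb are sister genes of the albumin family and lie head to tail on chromosome 5 (Alb at chr5:90460897-90476602 and Afp at chr5:90490737-90508907, both on the plus strand of GRCm38). Alpha-fetoprotein is the main carrier protein of fetal plasma and albumin takes that place later. Afp had 23, 71 and 141 reads in Bahd1-KO replicates 1 to 3 and 20, 3 and 2340 reads in Bahd1-WT replicates 1 to 3. In CPM this was 0.351, 0.841 and 2.61 against 0.209, 0.034 and 23.2, or 1.27 ± 1.19 for Bahd1-KO and 7.80 ± 13.3 for Bahd1-WT (SD, n = 3 each). The SD of the wild types exceeded their mean because both the lowest and the highest of the 6 values were wild type. Afp in Bahd1-WT replicate 3 was 66.1 times the level pooled over the remaining 4 (95% exact interval 54.9 to 80.3, which like all intervals here covers counting error only).

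Alb had 52, 35 and 306 reads across Bahd1-KO and 16, 5 and 384 across Bahd1-WT. The levels were 0.794, 0.414 and 5.67 CPM against 0.167, 0.057 and 3.80 CPM, or 2.29 ± 2.93 and 1.34 ± 2.13 (SD, n = 3 each). Alb was high in the same 2 embryos as Afp, but in the opposite order. The level in Bahd1-WT replicate 3 was 0.670 times that in Bahd1-KO replicate 3 (0.575 to 0.782), while for Afp the same ratio was 8.86 (7.48 to 10.6). With scaling by total counts alone Alb was instead highest in Bahd1-WT replicate 3. A share of the reads of 2 genes needs no scaling: Afp made up 85.9% of the Afp and Alb reads in Bahd1-WT replicate 3 (84.5% to 87.2%, exact binomial interval) and 31.5% in Bahd1-KO replicate 3 (27.3% to 36.1%). Among the remaining embryos the share ran from 30.7% in Bahd1-KO replicate 1 to 67.0% in Bahd1-KO replicate 2, with only 8 reads behind the 37.5% of Bahd1-WT replicate 2. Per kilobase of exon, Afp stood at 4.24 times Alb in Bahd1-WT replicate 3 and at 0.320 times Alb in Bahd1-KO replicate 3.

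Trf encodes transferrin, the iron carrier of plasma, and lies at chr9:103204001-103230444. Its reads numbered 12, 34 and 154 across Bahd1-KO and 56, 58 and 94 across Bahd1-WT. The levels were 0.183, 0.403 and 2.85 CPM against 0.585, 0.658 and 0.931 CPM, or 1.15 ± 1.48 and 0.724 ± 0.182 (SD, n = 3 each). Trf was thus present at similar levels in all 3 Bahd1-WT embryos, also in the pair with few Afp and Alb reads, and its share of the Trf and Alb reads was 77.8% and 92.1% in that pair against 19.7% in Bahd1-WT replicate 3 (16.2% to 23.5%). In Bahd1-KO replicate 3 it stood at 5.96 times the level of the remaining 4 embryos (4.74 to 7.48), and in Bahd1-WT replicate 3 at 1.94 times (1.49 to 2.52). Myelin genes also moved with Bahd1-KO replicate 3: Mobp, a myelin gene named after its values were seen, had 16319 reads there against 46 and 18 in its fellow Bahd1-KO embryos, and the Bahd1-WT embryos had 1573, 17 and 23. The summed level of the 12 oligodendrocyte markers tested reached 1366 CPM in Bahd1-KO replicate 3, and the Bahd1-WT embryos spanned 180 to 287 CPM. Of these markers 7 were highest in that library, whereas the lineage factors went the other way, with Olig1 at 8.66 CPM there against 15.1 to 32.2 CPM in the others and Olig2 at 7.40 CPM against 17.7 to 23.3 CPM. Their part in the Trf values was not tested.

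Apoa1, Apoa2 and Apoa4 encode apolipoproteins, the protein coat of lipoprotein particles. Apoa1 and Apoa2 proteins are the main ones of high-density lipoprotein, and Apoa4 protein is best known from intestine and yolk sac. Apoa1 (chr9:46228580-46230466) had 16, 52 and 34 reads across Bahd1-KO and 13, 31 and 329 across Bahd1-WT. The levels were 0.244, 0.616 and 0.630 CPM against 0.136, 0.352 and 3.26 CPM, or 0.497 ± 0.219 and 1.25 ± 1.74 (SD, n = 3 each). Apoa1 set Bahd1-WT replicate 3 apart from every other embryo, Bahd1-KO replicate 3 included, by a factor of 5.17 between those 2 embryos (3.63 to 7.59). Apoa2 (chr1:171225054-171226379) had 15, 46 and 25 reads against 26, 35 and 140 reads. The levels were 0.229, 0.545 and 0.463 CPM for Bahd1-KO and 0.272, 0.397 and 1.39 CPM for Bahd1-WT, or 0.412 ± 0.164 and 0.685 ± 0.610 (SD, n = 3 each). Apoa2 had the mildest excess of the 3 in Bahd1-WT replicate 3, at 3.79 times the remaining 4 embryos (2.95 to 4.88), and in Bahd1-KO replicate 3 its ratio to those embryos was 1.27 with an interval that spanned 1 (0.790 to 1.96).

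Apoa4 (chr9:46240696-46243459) had 112 reads in Bahd1-WT replicate 3, 1 read in Bahd1-KO replicate 2 and 0 in the other 4 embryos. The level was 1.11 CPM in Bahd1-WT replicate 3, and a count of 0 allows up to 0.0556 CPM in Bahd1-KO replicate 3. The gene was picked on this value, so the ratio of 370 to the remaining 4 embryos (65.1 to 14752, from 112 reads against 1) is a description. Apoa4 lies in a cluster of 43.3 kb with Apoa1, Apoc3 and Apoa5. In Bahd1-WT replicate 3 it took 25.4% of the Apoa4 and Apoa1 reads (21.4% to 29.7%), and in Bahd1-KO replicate 3 it took 0 of 34, which allows up to 10.3%. Apoc3 had at most 1 read in any embryo, and so did Apoa5. Reads of the cluster in Bahd1-WT replicate 3 thus came from Apoa1 and Apoa4, with 329 and 112 reads, and hardly from their neighbours.

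Kng1 encodes kininogen, the precursor of bradykinin and an inhibitor of cysteine proteases, and Ahsg encodes fetuin-A, a carrier of calcium phosphate in fetal plasma. Both belong to the cystatin family and lie within 191 kb on chromosome 16 (Ahsg at chr16:22891277-22899449 and Kng1 at chr16:23057865-23082078). Kng1 had 3, 2 and 15 reads across Bahd1-KO and 0, 0 and 57 across Bahd1-WT, or 0.046, 0.024 and 0.278 CPM against 0, 0 and 0.564 CPM. Unlike Apoa4, which was also picked on its values, Kng1 was read in Bahd1-KO replicate 3, at 18.6 times the level of the remaining 4 embryos (6.41 to 65.3). Ahsg had 9, 10 and 83 reads against 3, 0 and 76 reads. The levels were 0.137, 0.118 and 1.54 CPM for Bahd1-KO and 0.031, 0 and 0.752 CPM for Bahd1-WT, or 0.598 ± 0.814 and 0.261 ± 0.426 (SD, n = 3 each). With TMM factors, Ahsg followed Alb rather than Afp in the order of the 2 high embryos, and its ratio of Bahd1-WT replicate 3 to Bahd1-KO replicate 3 was 0.489 (0.354 to 0.676). With scaling by total counts alone, Ahsg stayed highest in Bahd1-KO replicate 3 while Alb did not. The interval for the share of Ahsg among the Ahsg and Alb reads was 13.2% to 20.2% in Bahd1-WT replicate 3 and 17.4% to 25.7% in Bahd1-KO replicate 3, so these overlapped. Kng1 took 42.9% of the Kng1 and Ahsg reads in Bahd1-WT replicate 3 (34.3% to 51.7%) and 15.3% in Bahd1-KO replicate 3 (8.83% to 24.0%). Among the neighbours, Kng2 had 9 reads in Bahd1-WT replicate 3, 5 in Bahd1-KO replicate 3 and 0 elsewhere. Fetub and Hrg, by contrast, stayed between 2 and 15 reads in all embryos, with no excess in either of the 2.

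Fgb encodes the beta chain of fibrinogen, the clot protein, and lies at chr3:83040141-83049863. It had 3, 2 and 22 reads across Bahd1-KO and 1, 0 and 46 across Bahd1-WT. The levels were 0.046, 0.024 and 0.408 CPM against 0.010, 0 and 0.455 CPM, or 0.159 ± 0.216 and 0.155 ± 0.260 (SD, n = 3 each). Fgb was close to equal in the 2 high embryos, with a ratio of 1.12 and an interval that spanned 1 (0.658 to 1.95). Fgg, the gene of the gamma chain in the same 42.1 kb, had 4, 3 and 25 reads against 4, 3 and 46 reads and was likewise close to equal in the 2 high embryos, at 0.463 CPM in Bahd1-KO replicate 3 and 0.455 CPM in Bahd1-WT replicate 3. Fga, the gene of the alpha chain, had 6, 13 and 13 reads against 15, 8 and 65 reads, or 0.241 CPM in Bahd1-KO replicate 3, 0.644 CPM in Bahd1-WT replicate 3 and 0.0907 to 0.157 CPM in the others. Serpina1a encodes a form of alpha-1-antitrypsin, the plasma inhibitor of elastase, and lies at chr12:103853589-103863562. It had 5 reads in Bahd1-WT replicate 3, 3 in Bahd1-KO replicate 3 and 0 in the other 4. With 8 reads in all it missed the minimum of 10 for a test, and it has near-identical copies among which reads can be split, so its count is uncertain. The copy with the most reads, Serpina1b, had 21 reads in Bahd1-WT replicate 3, 8 in Bahd1-KO replicate 3 and at most 1 elsewhere.

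The mixture of the 10 genes per kilobase of exon, where levels can be compared between genes, differed among the embryos. In Bahd1-WT replicate 3 the summed level was 45.0% Afp, 17.3% Apoa1, 16.9% Apoa2 and 10.6% Alb. In Bahd1-KO replicate 3 it was 38.1% Alb, 13.6% Apoa2, 13.5% Trf, 12.2% Afp and 11.0% Ahsg. In the remaining 4 embryos Apoa2 led, with 35.2% in Bahd1-KO replicate 1, 47.5% in Bahd1-KO replicate 2, 53.7% in Bahd1-WT replicate 1 and 58.8% in Bahd1-WT replicate 2, but the other genes differed among them, as Alb made up 28.0% in Bahd1-KO replicate 1 and 1.93% in Bahd1-WT replicate 2. The plot of composition shows these shares.

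**Figure D2:**
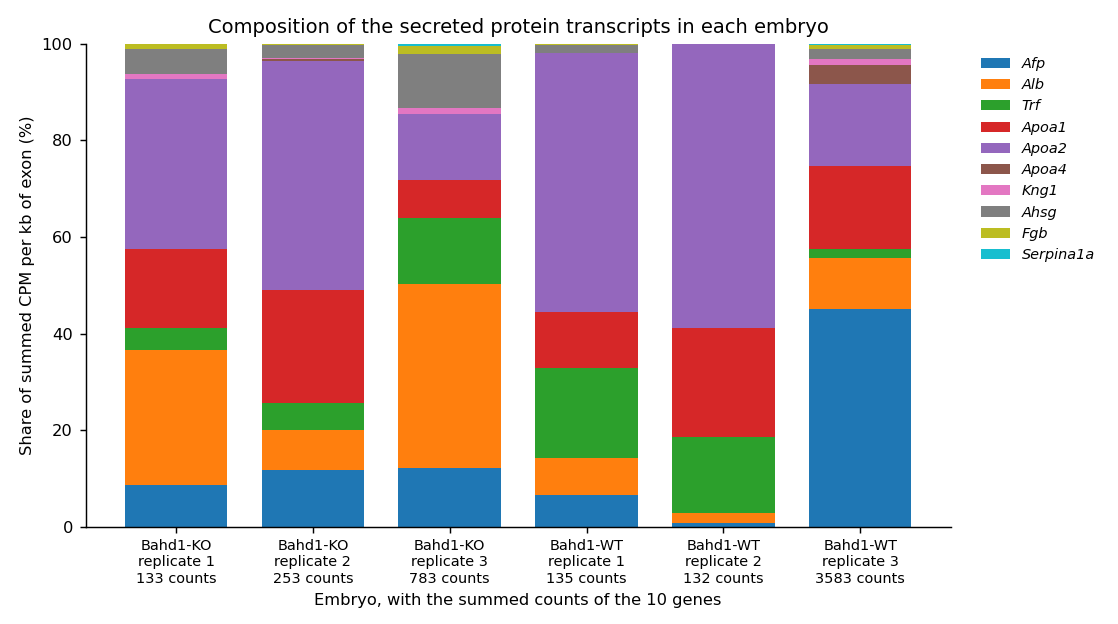
Share of each gene in the summed level per kilobase of exon of the 10 genes (percent, vertical axis), 1 stacked bar from 0 to 100 per embryo. Afp fills 45.0% of the bar of Bahd1-WT replicate 3, Alb 38.1% of that of Bahd1-KO replicate 3, and Apoa2 is the widest band in the other 4.

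Promoter sequences of Afp and Alb and of Apoa1 and Apoa4 are shown because each pair lies close together in the genome and yet its 2 genes differed in their profile over the embryos. Afp and Alb are neighbours, while Apoc3 lies between Apoa1 and Apoa4. Windows of 250 bases before the RefSeq start (GRCm38.p6) were at hand for 8 of the 10 genes, namely Afp, Alb, Apoa1, Apoa2, Apoa4, Ahsg, Fgb and Serpina1a, though that of Ahsg lies inside the gene as GENCODE annotates it. Those of Afp, Alb, Serpina1a and 1 of the windows of Apoa2 end short of the GENCODE start. The Afp window ends at chr5:90490713 and the gene begins at 90490737, and for Alb these are 90460869 and 90460897. The bases between were not searched, so a lack of a match in Alb does not cover them. The letters of the TATA box, TATAAA or TTTATA on the other strand, were in 12.4% of the 32851 windows of all genes. Among the 8 genes they were in the window of Afp, where they began 7 bases before the RefSeq start, and in 1 of the windows of Apoa2, where they began 212 bases before it. The HNF4 motif CAAAGTCCA (TGGACTTTG) was in 0.384% of all windows and in 0 of the members' windows. A match is a description of letters and not a site of binding. The sequences are written 5′ to 3′ in the direction of the gene, with TATAAA in capitals. They are the windows of Afp (chr5:90490464-90490713, plus strand), Alb (chr5:90460620-90460869, plus strand), Apoa1 (chr9:46228380-46228579, plus strand) and Apoa4 (chr9:46240594-46240695, plus strand), the last 2 cut where the annotated transcript begins.
Afp: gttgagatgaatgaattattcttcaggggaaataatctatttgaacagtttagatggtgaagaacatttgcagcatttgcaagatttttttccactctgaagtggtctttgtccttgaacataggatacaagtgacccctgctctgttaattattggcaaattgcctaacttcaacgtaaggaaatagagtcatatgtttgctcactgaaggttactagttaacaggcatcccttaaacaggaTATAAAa
Alb: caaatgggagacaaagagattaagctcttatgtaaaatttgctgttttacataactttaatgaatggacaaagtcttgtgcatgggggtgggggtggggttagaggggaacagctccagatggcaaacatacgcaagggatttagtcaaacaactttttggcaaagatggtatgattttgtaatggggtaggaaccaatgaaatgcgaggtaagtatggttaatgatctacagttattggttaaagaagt
Apoa1: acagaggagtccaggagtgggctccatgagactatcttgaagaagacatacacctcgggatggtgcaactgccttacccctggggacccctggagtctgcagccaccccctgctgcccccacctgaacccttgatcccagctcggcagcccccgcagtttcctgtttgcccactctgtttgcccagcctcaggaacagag
Apoa4: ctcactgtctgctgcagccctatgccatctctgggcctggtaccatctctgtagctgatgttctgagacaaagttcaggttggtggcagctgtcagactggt
Of the pair on chromosome 5, Afp was highest in Bahd1-WT replicate 3 and, with TMM factors, Alb in Bahd1-KO replicate 3. Of the pair on chromosome 9, both were highest in Bahd1-WT replicate 3, but Apoa1 was read in every embryo and Apoa4 hardly outside that one.

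Over all 10 genes, Bahd1-WT replicate 3 was highest for 6 (Afp, Apoa1, Apoa2, Apoa4, Kng1 and Fgb) and Bahd1-KO replicate 3 for 4 (Alb, Trf, Ahsg and Serpina1a). Of all 24739 genes with at least 10 reads, 17.4% were highest in Bahd1-WT replicate 3 and 38.1% in Bahd1-KO replicate 3, so the count for the latter was near the background. The genes were chosen with the first of these embryos in view, and nothing is read from their count there. With scaling by total counts, which leaves out the factor of 0.683, the split became 8 and 2, as Alb and Serpina1a moved to Bahd1-WT replicate 3. The median of log2(CPM + 0.1) over the genes, set against the mean of the other 5 embryos, was 1.99 in Bahd1-WT replicate 3 and 1.43 in Bahd1-KO replicate 3. Without Apoa4 and Kng1 it was 1.77 and 1.67 in these embryos, and with the reference formed without Bahd1-KO replicate 3 it was 2.46 in Bahd1-WT replicate 3. Over all 10 genes it was -0.63 in Bahd1-KO replicate 1, -0.59 in Bahd1-KO replicate 2, -1.05 in Bahd1-WT replicate 1 and -0.93 in Bahd1-WT replicate 2. With a pseudocount of 1 CPM in place of 0.1 it fell to 0.67 in Bahd1-WT replicate 3 and 0.28 in Bahd1-KO replicate 3. With scaling by total counts alone it was 2.18 and 0.94 in these embryos. The second place also went to one of the 2 high embryos for 8 of the 10 genes, and to Bahd1-KO replicate 2 for Apoa2 and Apoa4.

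The design asks whether loss of Bahd1 changed these genes. The values of the genotypes overlapped for all 10, against 6.71% of the genes tested that did not overlap. Of the 7 genes that were not picked on their values and passed the minimum of 10 reads, 0 were called by edgeR at an adjusted p under 0.05, beside 0.00404% of all genes tested, and 0 had an unadjusted p under 0.05. DESeq2 called 0 of them as well, beside 0.0323% of all genes, and withheld an adjusted p for Afp. The log2 fold changes of Bahd1-KO against Bahd1-WT from edgeR were -2.63 for Afp (SE 1.96, adjusted p = 0.696), 0.77 for Alb (SE 1.55, adjusted p = 0.870) and 0.65 for Trf (SE 0.957, adjusted p = 0.818). They were -1.33 for Apoa1 (SE 1.12, adjusted p = 0.707), -0.73 for Apoa2 (SE 0.732, adjusted p = 0.740), 1.17 for Ahsg (SE 1.68, adjusted p = 0.815) and -0.01 for Fgb (SE 1.64, adjusted p = 0.998). None of these differences was larger than the spread between embryos, that of Afp included. The median over these 7 genes was -0.01 and over all genes tested 0.06, and with Apoa4 and Kng1, picked on their values, it was -0.73. Fewer cells of a type and less RNA per cell cannot be told apart in these bulk samples.

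The direction of the genotype difference hung on which of the 2 high embryos was in the fit. Without Bahd1-KO replicate 3, all 7 genes had a negative log2 fold change, from -0.81 for Apoa2 to -3.69 for Afp, as had 50.8% of all genes in that fit. Without Bahd1-WT replicate 3, all 7 were positive, from 0.29 for Apoa2 to 5.07 for Ahsg, as were 52.9% of all genes. None was called in either fit, where the adjusted p was 0.981 for all 7 and 0.961 for all 7, although 1 and 3 of them had an unadjusted p under 0.05, as had 1.48% and 0.701% of all genes. Over all genes, edgeR called 0.0171% in the first of these fits and 0% in the second. Without Bahd1-WT replicate 3, the CPM of the 5 embryos were not level between the genotypes for every gene. In Afp, Alb, Ahsg and Fgb, 4 of the 7, each of the 3 Bahd1-KO embryos was above Bahd1-WT replicates 1 and 2, which was so for 7.33% of all genes, and Trf, Apoa1 and Apoa2 overlapped. For Fgb this rested on 3 and 2 reads in Bahd1-KO replicates 1 and 2 against 1 and 0 in those Bahd1-WT embryos, too few to rank. Bahd1-WT replicate 3 was left out here after its values were seen, while Bahd1-KO replicate 3 stayed in, and so this order has no test.

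**Figure D3:**
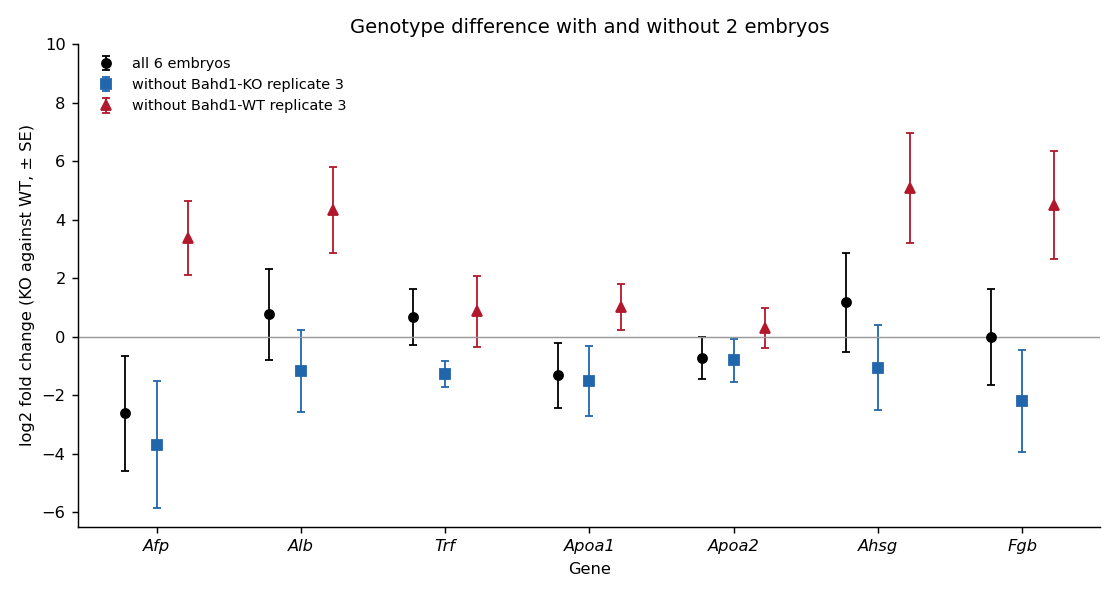
Log2 fold change of Bahd1-KO against Bahd1-WT for the 7 genes tested, from all 6 embryos (circles), without Bahd1-KO replicate 3 (squares) and without Bahd1-WT replicate 3 (triangles). Bars are the SE of each fit. All squares lie below 0, from -3.69 to -0.81, and all triangles above it, from 0.29 to 5.07.

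Other genes of liver, yolk sac and neighbouring tissues were read beside the 10, from 17 lists. None of the genes in any list was called by edgeR. Of 29 plasma protein genes of hepatocytes, 27 were tested. Their median log2 fold change was -0.07. Of the 27, 12 were highest in Bahd1-WT replicate 3, above the share of 17.4% over all genes. Another 11 were highest in Bahd1-KO replicate 3, near the share of 38.1% over all genes. The list was chosen with earlier results of these data known, so these counts are a description. Their median levels in those embryos stood at 0.73 and 0.76 on the log2 scale. Its member with the highest level, Ttr, is also the leading transcript of choroid plexus and had 3022 reads in Bahd1-KO replicate 3, the fewest of all, against 15578 to 67637 elsewhere. Haptoglobin (Hp), named after its values were seen, had 799 reads in Bahd1-KO replicate 3 and 3 to 23 in the others. Of 18 hepatocyte enzymes and transporters, 11 were tested, and their median levels were 0.34 in Bahd1-KO replicate 3 and -0.16 in Bahd1-WT replicate 3. Cyp2e1, a drug-metabolising enzyme of mature hepatocytes and also named after its values were seen, had 126 reads in Bahd1-KO replicate 3 and at most 1 in any other embryo.

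Among the liver and endoderm transcription factors, 15 of 16 were tested, with a median level of 1.99 in Bahd1-KO replicate 3 and -0.30 in Bahd1-WT replicate 3. Gata6 and Foxa1, which lung and other endoderm share, had 3384 reads in the first of these against 28 to 50 in the others and 3329 against 350 to 592. Zbtb20, the factor with most reads there, was not raised, at 194 CPM against 156 to 332 CPM in the others. Hnf4a, a master factor of hepatocytes and visceral endoderm, had 14 reads in Bahd1-WT replicate 3 and 0 to 4 elsewhere. In the list of yolk sac visceral endoderm, 13 of 13 were tested, and the medians were 0.28 in Bahd1-WT replicate 3 and -0.38 in Bahd1-KO replicate 3. Apob, the scaffold of the large lipoproteins that yolk sac, liver and intestine export, had 636 reads in Bahd1-WT replicate 3 and 17, 25, 17, 29 and 22 in the others. Apob therefore marked the same single embryo as Apoa4. Amn, which visceral endoderm and kidney use for uptake of proteins, went another way, with 59 reads in Bahd1-WT replicate 3, 0 in Bahd1-KO replicate 3 and 18 to 92 in the others. Of 14 enterocyte genes, 9 were tested, and the medians were 0.03 in Bahd1-WT replicate 3 and -0.02 in Bahd1-KO replicate 3. Among them Fabp2, Cdx1 and Cdx2 had at most 1 read in any embryo, while others were read in every embryo, such as Anpep with 586 to 1160 reads and Lct with 17 to 60. Markers of other tissues stood out in single embryos too. The median level of the placenta list was 4.45 in Bahd1-KO replicate 2, where its summed level was 11.5 CPM against at most 0.198 CPM in the Bahd1-WT embryos, and those of muscle and of meninges and connective tissue were 4.26 and 2.23 in Bahd1-KO replicate 3. The part of liver, yolk sac, gut or other material in the levels of the 10 genes was not tested.

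Blood was read beside the plasma proteins as well. Of the adult globin genes, Hbb-bs had 5867, 31215 and 11091 reads across Bahd1-KO and 7388, 19591 and 30968 across Bahd1-WT. In CPM it was highest in Bahd1-KO replicate 2, where Afp stood at 0.841 CPM and Alb at 0.414 CPM. The embryonic globin Hbb-y, made by primitive red cells of the yolk sac and named after its values were seen, had 84, 166 and 476 reads against 9, 18 and 182. In CPM that was 1.28, 1.97 and 8.82 for Bahd1-KO and 0.094, 0.204 and 1.80 for Bahd1-WT, the highest in Bahd1-KO replicate 3 as for Alb. The median level of the red cell list was 1.90 in Bahd1-KO replicate 3 and 0.06 in Bahd1-WT replicate 3, and its summed level spanned 315 to 688 CPM in Bahd1-KO and 255 to 590 CPM in Bahd1-WT. Its part in the plasma protein values was not tested.

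The receptors and processing enzymes of these proteins were steadier as a list, with median levels of 0.26 in Bahd1-KO replicate 3 and 0.09 in Bahd1-WT replicate 3. Single genes among them still differed widely between embryos. Of 28 listed, 26 were tested, and the median log2 fold change was 0.00. Tfrc, the transferrin receptor, had 9941, 7711 and 8139 reads across Bahd1-KO and 11682, 7516 and 8695 across Bahd1-WT. In edgeR the genotypes differed by 0.43 on the log2 scale (SE 0.296) at an adjusted p of 0.696. Lrp8, a neuronal receptor of apolipoprotein E and reelin, had 1896 reads in Bahd1-KO replicate 3 and 25289 to 31481 in the others. Bdkrb2, the receptor of bradykinin cut from kininogen, had 114, 219 and 220 against 217, 224 and 233 reads, with no excess in the embryo that held most Kng1 reads. In CPM, Bdkrb2 was highest in Bahd1-KO replicate 3, at 4.08 against 1.74 to 2.59 in the others.

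**Figure D4:**
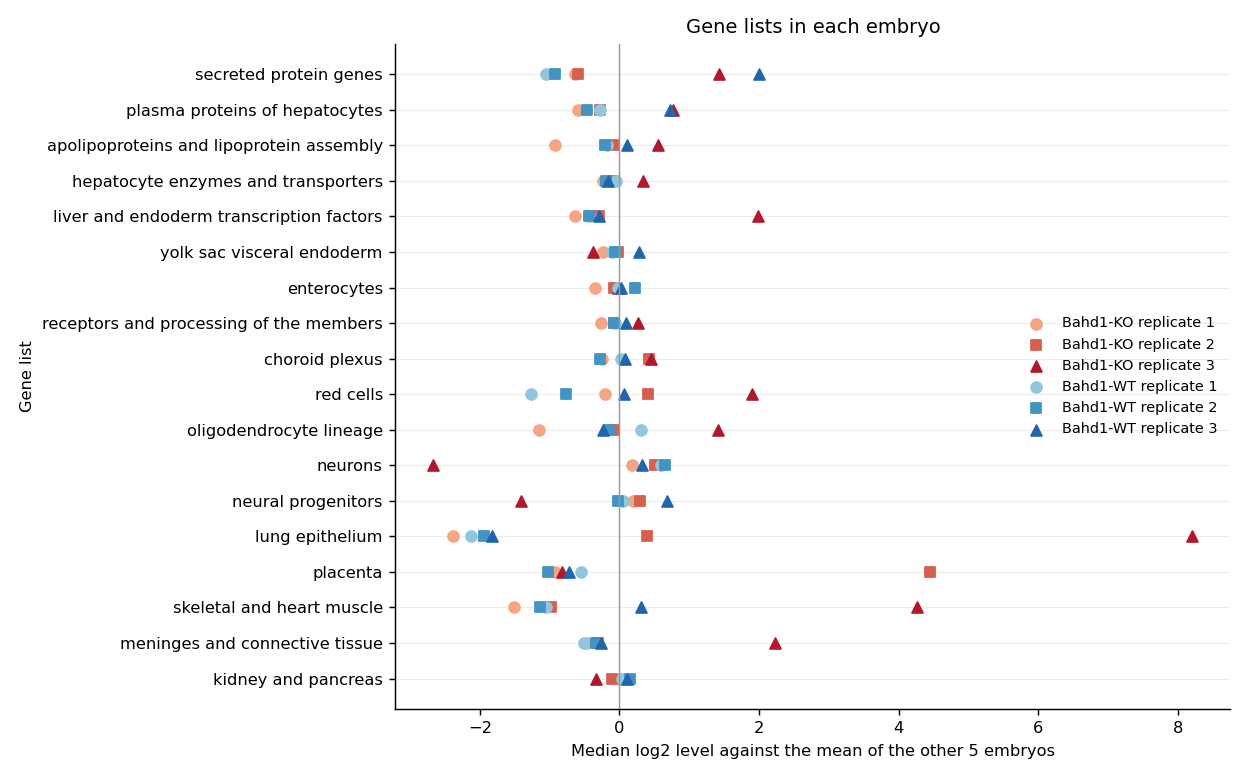
Median level of the 10 genes and of each gene list in the 6 embryos, as log2(CPM + 0.1) less the mean of the other 5 embryos (horizontal axis), 1 line per list and 1 symbol per embryo. The 10 genes stand at 1.99 in Bahd1-WT replicate 3 and 1.43 in Bahd1-KO replicate 3, and lung epithelium at 8.21 in the latter.

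The embryo with most Apoa4 reads was compared with the highest of the other 5 for the 14282 genes that had at least 100 reads in it. At the head stood Gm1821 and Gapdh-ps14, processed pseudogenes with 3102 and 1780 reads there and at most 1 and 12 elsewhere, whose reads can come from near-identical copies and are uncertain. Apob followed at 20.0 times, and then Apoa4, Afp at 8.86 times, Apoa1 at 5.17 times, Neurog1 at 2.65 times and Apoa2 at 2.55 times. Of the first 8 genes 4 were thus among the 10, which were chosen with this embryo in view. After them came Fgf17, Tk1, Mfng, Dbx1, Rhbdl3, Etfb and Ngdn, all between 2.09 and 1.66 times. Alb ranked 9408th at 0.670 times because Bahd1-KO replicate 3 exceeded it.

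The genes with profiles most like those of Apoa4, Kng1 and Alb were sought over the 6 embryos by Pearson's r of log2(CPM + 0.1) among 15485 genes with at least 100 reads in 1 embryo. The points share libraries and depth, so these are descriptions. Nearest to Apoa4 were Gm1821 (0.998), Apob (0.998), Gapdh-ps14 (0.995), Taf12 (0.971) and Btf3 (0.955). Apob spanned 18.3-fold across the embryos while Taf12 and Btf3 spanned 1.41-fold each. Nearest to Kng1 were Pif1 (0.985), Lockd (0.974), Upf3a (0.965), 2810006K23Rik (0.964) and Prpf3 (0.958), and nearest to Alb were Gpsm2 (0.986), Zfp830 (0.986), Katna1 (0.985), Mdm1 (0.968) and Jag1 (0.966), with spans of 1.18- to 1.85-fold and 1.22- to 1.55-fold. Among the 10 genes themselves, Alb was closest in profile to Ahsg (0.985) and Fgb (0.959), and Kng1 to Fgb (0.980). Apoa4 was closer to Apoa2 (0.895) and Apoa1 (0.894) than to Alb (0.505) or Trf (0.163).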

How the data were processed

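Per the labels and the study's methods, the authors took whole brains of embryos, sequenced stranded libraries (single-end and paired-end runs are both described, without saying which made these counts), trimmed the reads with cutadapt 1.11, aligned them to GRCm38 (the submitters' processing notes name STAR 2.5.0a, the methods also TopHat2, and which made the table was not stated) and deposited raw read counts per Ensembl gene from featureCounts 1.4.6-p3, with no normalization. All columns matched a sample title, which gave genotype and replicate number. The 24739 genes whose counts summed to at least 10 entered edgeR 4.0.16 (R 4.3.3) and its two-sided quasi-likelihood test, with TMM factors, genotype as sole covariate and Benjamini-Hochberg adjustment over all of them. DESeq2 1.42.0 was an alternative, beside other scaling, other filters, a replicate block and leaving out each embryo. P-values set the genotype difference against the spread between embryos. Exon lengths came from GENCODE M21 for 99.7% of genes. Levels used a pseudocount of 0.1 CPM. Intervals (95%) were exact and covered counting error only, and a count of 0 allows up to 3 counts. The members and the gene lists were chosen with earlier results of these data known. The rule for named genes gave Bahd1, the 10 members, the 3 genes of highest level per kilobase and any called gene of each list (of which those bearing on the members are printed), the 5 genes most like Apoa4, Kng1 and Alb, and the 15 genes highest in the embryo with most Apoa4. Every other gene named, cluster neighbours included, was picked after its values were seen. Fits were run on simulated data, where recovery of the set changes was checked only at a spread below the fitted one. That check does not show what could be detected at the spread of these data. Promoter windows came from RefSeq. Promoter motifs were chosen after the data were seen, and 1 item of the lists is not reported here.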

Additional observations from a re-analysis of the deposited data

How the results depend on the processing

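Of 187 alternative values for 19 results, 153 stayed on the same side of the threshold in the same direction or, for values with no test, moved by less than the spread between embryos. The number of genes called by genotype was 1 with edgeR, 8 with DESeq2 and 0 to 4 when an embryo was left out, with 4 without Bahd1-KO replicate 3. The log2 fold change of Bahd1 ranged from -8.78 to -8.01 and the median of the 9 genes fitted (8 without Bahd1-WT replicate 3) from -1.52 to 3.84 when an embryo was left out, or from -1.29 to 3.36 over the 7 not picked on their values, the extremes of both medians coming without Bahd1-KO replicate 3 and without Bahd1-WT replicate 3. Leaving out an embryo gave log2 fold changes of -3.69 to 3.36 for Afp, -1.18 to 4.32 for Alb, -1.29 to 1.16 for Trf, -1.90 to 1.01 for Apoa1, -1.14 to 0.29 for Apoa2, -1.06 to 5.07 for Ahsg and -2.20 to 4.48 for Fgb, with the turns in sign coming from the same 2 embryos and, for Fgb, also from Bahd1-KO replicates 1 and 2 (0.43 and 0.46). Fgb, at -0.01 with edgeR, was also at 0.025 with DESeq2 size factors and at 0.062 in DESeq2. Scaling by total counts moved the median of all genes from 0.06 to -0.11 and that of the 7 members not picked on their values from -0.01 to -0.53. Apoa4 could not be fitted without Bahd1-WT replicate 3, since 1 read was left, and 6 of the 10 genes passed the stricter filter of edgeR, with a median of 0.040.

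With the replicate number as a block, 0 genes were called and Bahd1 was at -8.49 (adjusted p = 0.229, edgeR), Afp at 0.52, Trf at -0.25 and Fgb at 0.95, and the median of the 9 genes turned from -0.73 to 0.52. Embryos with the same number correlated at 0.19, 0.25 and -0.10 in their deviations from the genotype means, so that the numbers did not pair them. The errors of the log2 fold changes of the 7 genes tested, 0.732 (Apoa2) to 1.96 (Afp), set what could be seen with 3 embryos per genotype.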
